A study of Mus musculus with 11 samples.

Results

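The genes described here belong to gene families named for proteins of pre-mRNA splicing, and a few members act elsewhere in RNA metabolism. They are the 72 protein-coding genes of chromosomes 1 to 19, of 21418 in the GENCODE vM1 annotation of mm9, whose symbol starts with Srsf, Sf3a, Sf3b, Snrp, Hnrnp or Prpf, or with Lsm and a number, with Snrpn left out. The rule uses symbols and no read count, although these families were picked with earlier results of these data known. By role they are 11 SR proteins, 8 subunits of SF3a and SF3b, 11 Sm and other snRNP proteins, 17 hnRNP proteins, 13 PRP factors and 12 LSm proteins.

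Introns are removed by the spliceosome, which assembles on each intron from small nuclear ribonucleoproteins (snRNPs), RNA-protein particles built around a ring of Sm or LSm proteins. SF3a and SF3b belong to the U2 snRNP and hold the branch point, PRP factors build and rearrange the catalytic particle, SR proteins bind exonic enhancers and recruit the machinery, and hnRNP proteins coat the nascent transcript and often act against exon inclusion. Most of these genes are housekeeping genes, needed in every dividing cell. H3.3 is the histone H3 variant that is deposited outside of DNA replication, at promoters and in the bodies of transcribed genes, and MacroH2A2 is an H2A variant with a large extra domain that is best known from silent chromatin.

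The data are 11 ChIP-Seq libraries from KH2 mouse ES cells (129 x C57BL/6), grown on feeder MEFs that were depleted before induction, and from MEFs derived from chimeric embryos made with such cells, selected with puromycin and used at passage 2. In the cells used for anti-HA libraries, 1 HA-tagged histone, H3.3 or MacroH2A2 in separate lines, is expressed from a TetO promoter in the Col1a1 locus after addition of doxycycline (Dox, 2 μg/ml), through M2rtTA expressed from ROSA26, so that time after Dox follows newly made histone. Anti-HA libraries exist for HA-H3.3 in ES cells at 3 and 6 hours, for HA-Macro (HA-MacroH2A2) in ES cells without Dox and at 3, 6 and 12 hours, and for HA-Macro in MEFs at 3, 6 and 12 hours. Anti-MacroH2A2 libraries exist for ES cells and for MEFs, and each combines 2 replicates according to its label. Their labels give untreated parental ES cells and wild type MEFs, while the study's text names inducible cells and Dox for some anti-MacroH2A2 data, so that only their antibody and cell type were used. Because the tagged histone comes from a transgene, its level need not be that of the endogenous protein, and the uninduced library, the reference before induction, may itself hold some tagged histone. Every condition has 1 library, so there is no test across samples, no p-value is given, and the 95% intervals cover counting error only.

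Depth ranged from 6488112 to 20541627 mapped intervals per library. Intervals span 400 bp for HA-H3.3 and for anti-MacroH2A2 and 150 bp otherwise, and each was counted at its midpoint. The 3-hour HA-Macro library from ES cells stands apart from its series: 0.112% of its distinct reads lie on chromosome Y, against 0.0219% to 0.0244% in the uninduced, 6-hour and 12-hour libraries. That share is near those of HA-H3.3 at 3 hours (0.102%) and of anti-MacroH2A2 in ES cells (0.100%). Repeated intervals made up 4.73% of this library and 5.39% to 6.00% of the others of its series, and the part of these differences in the results was not tested. The main counts and medians that use this library are therefore also given with that of 6 hours instead. In the HA-H3.3 library at 6 hours, the bodies of ES cell marker genes held 1.11 (Sox2) to 3.22 (Pou5f1) reads per kb and 1000000 autosomal reads (RPM per kb), and those of fibroblast markers 0.238 to 1.25. There is no HA-H3.3 library from MEFs, so that the MEF label was not checked in this way.

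The promoters of splicing factor genes were rich in CpG dinucleotides and often shared. Of the 72, 45 (62.5%) were CpG-rich by the definition used here (at least 55% G and C, observed over expected CpG at least 0.6), compared with 35.5% of all protein-coding genes. For 21 (29.2%) another gene, a divergent partner, starts on the opposite strand within 1 kb upstream, compared with 9.56% of all genes and 17.5% of genes with CpG-rich promoters. The window of 600 bp on each side of the TSS overlaps that of another gene for 31 of the 72 (43.1%), as for 17.9% of all genes, 29.6% of genes with CpG-rich promoters and 42.9% of mitochondrial ribosomal protein genes, and reads there cannot be assigned to either gene. Among the 31 are Srsf2, Sf3a1, Sf3a2, Sf3b3, Sf3b4, Snrpa, Snrpd3, Snrpf, Hnrnpa1, Hnrnpd, Hnrnph3, Lsm7, Lsm14a and Prpf38a. Promoter values given below for these genes belong to the shared window. Annotated gene length was 12.4 kb in the median, from 0.733 kb (Sf3b5, the smallest SF3b subunit) to 63.8 kb.

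The 250 bases upstream of the TSS are shown for 8 genes, taken from mm9 on the strand of the gene: those with the most promoter reads in each role, then Sf3b4 with the lowest HA-Macro ratio, and Srsf7 as a promoter with an ETS motif. Capitals mark the motif letters found and lower case all other bases.
Srsf2 (chr11:116714409-116714658, minus strand): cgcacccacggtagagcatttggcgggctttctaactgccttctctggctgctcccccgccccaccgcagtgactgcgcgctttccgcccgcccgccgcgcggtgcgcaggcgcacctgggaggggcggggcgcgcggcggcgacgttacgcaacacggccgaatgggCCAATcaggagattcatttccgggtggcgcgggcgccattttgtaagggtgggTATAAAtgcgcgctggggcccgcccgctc
Sf3a2 (chr10:80260693-80260942, plus strand): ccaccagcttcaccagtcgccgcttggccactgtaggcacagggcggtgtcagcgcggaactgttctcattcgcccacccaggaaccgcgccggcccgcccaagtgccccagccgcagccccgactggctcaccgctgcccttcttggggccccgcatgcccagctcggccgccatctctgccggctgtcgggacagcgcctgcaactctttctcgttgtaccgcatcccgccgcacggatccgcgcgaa
Snrpa1 (chr7:73204935-73205184, plus strand): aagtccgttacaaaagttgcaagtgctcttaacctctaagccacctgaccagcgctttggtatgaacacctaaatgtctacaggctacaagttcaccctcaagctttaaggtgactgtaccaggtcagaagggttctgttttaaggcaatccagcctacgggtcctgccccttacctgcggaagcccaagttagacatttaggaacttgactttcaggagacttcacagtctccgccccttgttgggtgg
Hnrnpu (chr1:180267929-180268178, minus strand): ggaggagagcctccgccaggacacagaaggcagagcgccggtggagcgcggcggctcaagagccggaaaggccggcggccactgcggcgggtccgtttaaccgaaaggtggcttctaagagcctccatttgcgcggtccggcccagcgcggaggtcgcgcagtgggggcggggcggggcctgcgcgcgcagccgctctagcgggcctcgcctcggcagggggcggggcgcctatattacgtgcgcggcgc
Prpf40b (chr15:99125268-99125517, plus strand): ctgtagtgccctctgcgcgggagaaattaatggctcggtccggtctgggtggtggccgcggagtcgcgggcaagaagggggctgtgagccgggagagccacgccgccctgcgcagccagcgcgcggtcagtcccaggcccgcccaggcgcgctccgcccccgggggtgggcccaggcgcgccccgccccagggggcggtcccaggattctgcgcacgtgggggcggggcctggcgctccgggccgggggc
Lsm14b (chr2:179759442-179759691, plus strand): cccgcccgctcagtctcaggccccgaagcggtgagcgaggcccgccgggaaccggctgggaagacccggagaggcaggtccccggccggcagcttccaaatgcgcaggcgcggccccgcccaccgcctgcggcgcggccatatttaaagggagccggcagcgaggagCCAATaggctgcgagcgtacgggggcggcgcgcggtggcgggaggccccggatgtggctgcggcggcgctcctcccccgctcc
Sf3b4 (chr3:95976005-95976254, plus strand): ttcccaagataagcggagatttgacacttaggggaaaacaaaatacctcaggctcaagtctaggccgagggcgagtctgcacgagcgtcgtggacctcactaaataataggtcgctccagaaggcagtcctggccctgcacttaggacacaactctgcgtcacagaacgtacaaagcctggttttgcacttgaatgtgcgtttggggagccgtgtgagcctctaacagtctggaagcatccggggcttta
Srsf7 (chr17:80606630-80606879, minus strand): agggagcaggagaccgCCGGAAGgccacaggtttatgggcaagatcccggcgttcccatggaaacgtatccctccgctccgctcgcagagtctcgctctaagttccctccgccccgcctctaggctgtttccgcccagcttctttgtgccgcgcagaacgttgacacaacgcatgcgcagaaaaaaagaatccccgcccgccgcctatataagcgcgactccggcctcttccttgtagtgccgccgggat
The Srsf2 promoter combines 33 CpG dinucleotides with a TATA box 29 bases upstream of the TSS and a CCAAT motif 82 bases upstream. The Hnrnpu sequence held the most CpG dinucleotides of the 8 (35), and the Snrpa1 sequence the fewest (5).

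Motifs were searched in these 250 bases on both strands for all genes, and no searched motif contains another. The ETS motif CCGGAAG was present in 16 of the 72 (22.2%), among them Srsf4, Srsf5, Srsf7, Srsf11, Snrpd1, Snrpg, Sf3b2 and Sf3b3, compared with 8.36% of all promoters and 13.6% of CpG-rich promoters. CCAAT was present in 34 (47.2%, all promoters 34.7%, CpG-rich promoters 33.2%), including 11 of the 17 hnRNP genes. TATAAA was present in 6 (8.33%), below the share of all promoters (12.4%) and above that of CpG-rich promoters (3.98%). The NRF1 palindrome and the YY1 motif were found in none of the 72, and in 0.906% and 0.346% of all promoters. A match is a run of letters in this window and not a shown binding site.

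HA-Macro was present at splicing factor promoters early after induction in ES cells. Reads within 600 bp of the TSS per 1000000 autosomal reads (promoter level, in RPM) had a median over the 72 genes of 0.579 before Dox and of 1.57, 0.874 and 0.630 after 3, 6 and 12 hours (the order kept for every ES time course given here), and over all genes of 0.579, 0.892, 0.758 and 0.603. The median gene of the set was thus level with the median of all genes before induction, above it at 3 hours and close to it again at 12 hours. In MEFs the medians of the 72 were 0.503, 0.379 and 0.351 at 3, 6 and 12 hours, below those of all genes at each time (0.549, 0.473 and 0.451). Anti-MacroH2A2 gave 1.20 in ES cells (all genes 1.08) and 0.490 in MEFs (all genes 0.630). HA-H3.3 gave 1.90 at 3 hours and 2.96 at 6 hours, against 1.27 and 1.91 for all genes. Promoters rich in CpG dinucleotides, the class of most of the 72 genes, had higher medians than the 72 in HA-H3.3 (2.22 and 3.44) and with anti-MacroH2A2 (1.68 in ES cells, 0.769 in MEFs). In HA-Macro they had 0.745, 1.49, 1.05 and 0.767 along the ES time course, and 0.641, 0.568 and 0.502 in MEFs. These were above the medians of the 72 except at 3 hours in ES cells. In bulk chromatin, a lower share of cells with the variant and less of it in every cell cannot be told apart.

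**Figure D1:**
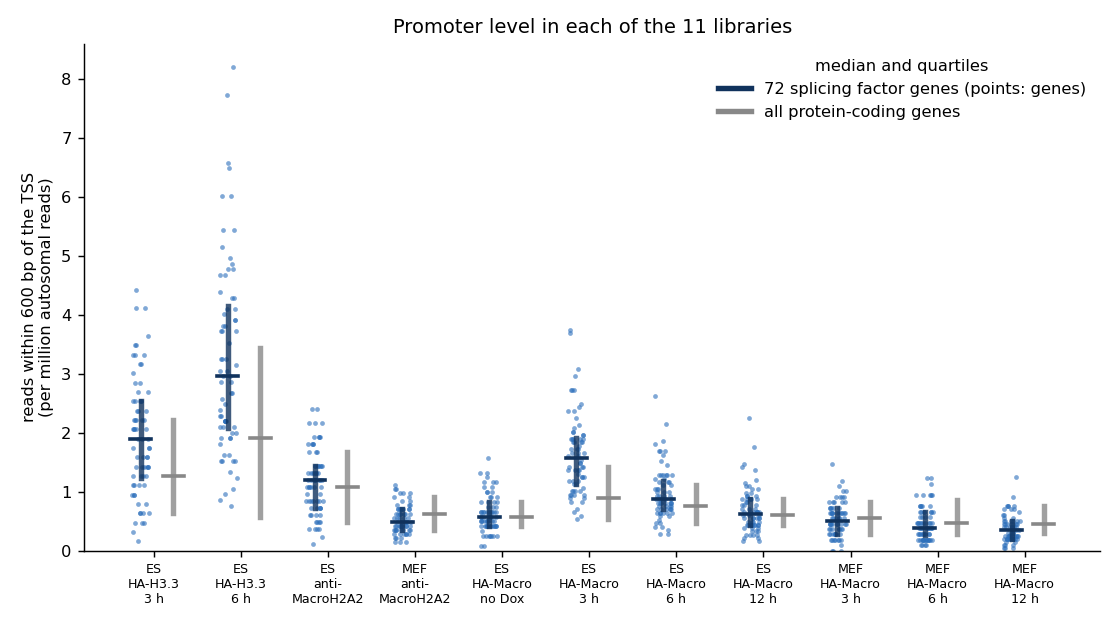
Promoter level (RPM within 600 bp of the TSS) in each of the 11 libraries, with 1 point per splicing factor gene, and the median and quartiles of the 72 genes in blue and of all protein-coding genes in grey. In HA-Macro ES cells the median of the 72 stands at 1.57 at 3 hours and 0.630 at 12 hours, and in MEFs it lies between 0.351 and 0.503.

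The genes with the highest promoter level at 3 hours in ES cells were Srsf2, an SR protein that acts in both constitutive and alternative splicing, with 3.75, and Hnrnpab, an hnRNP protein that binds AU-rich RNA, with 3.69. The lowest were Hnrnpa1, a splicing silencer protein, with 0.535 and Snrpf, a subunit of the Sm ring, with 0.594. Hnrnpa1 has near-identical copies elsewhere in the genome, and since 1 location was kept at random for reads with several, its levels are uncertain. Hnrnpa1 and Snrpf were also the lowest of the 72 in HA-H3.3 at 3 hours (0.158 and 0.317) and with anti-MacroH2A2 in ES cells (0.120 and 0.240). By role, the median at 3 hours in ES cells was 1.90 for SR proteins, 1.69 for LSm proteins, 1.66 for hnRNP proteins, 1.64 for SF3a and SF3b, 1.43 for Sm and other snRNP proteins and 1.19 for PRP factors.

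Where newly made histone is gained or lost relative to the rest of the genome, and whether this differs between cell types, is addressed by the ratio of HA-Macro at 12 over 3 hours. The methods name no removal of Dox, so that tagged histone may still have been made at 12 hours. In ES cells, promoter HA-Macro at splicing factor genes was lower at 12 hours than at 3 hours. Pooled over the 72 genes the log2 ratio was -1.24 (95% counting interval -1.36 to -1.13), and the median gene had -1.19, with all protein-coding genes at -0.53 and CpG-rich promoters at -0.91. Of the 72, 48 were at least 2-fold lower at 12 hours (1 read added to each library, at least 10 reads in both together), where 28.3% of all genes tested were. None was 2-fold higher (all genes tested, 4.54%), 70 of 72 lay below 0 (71.7%), and for 44 the counting interval lay below 0 (all genes tested, 26.4%). When the library of 6 hours was used instead of that of 3 hours, the pooled ratio was -0.50 (-0.62 to -0.37) and the median -0.51 (all genes, -0.26), and 18 of 72 were at least 2-fold lower, where 10.3% of all genes were. The pooled ratio of 12 over 6 hours lay between -0.64 (SF3a and SF3b) and -0.33 (PRP factors) in the 6 roles.

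**Figure D2:**
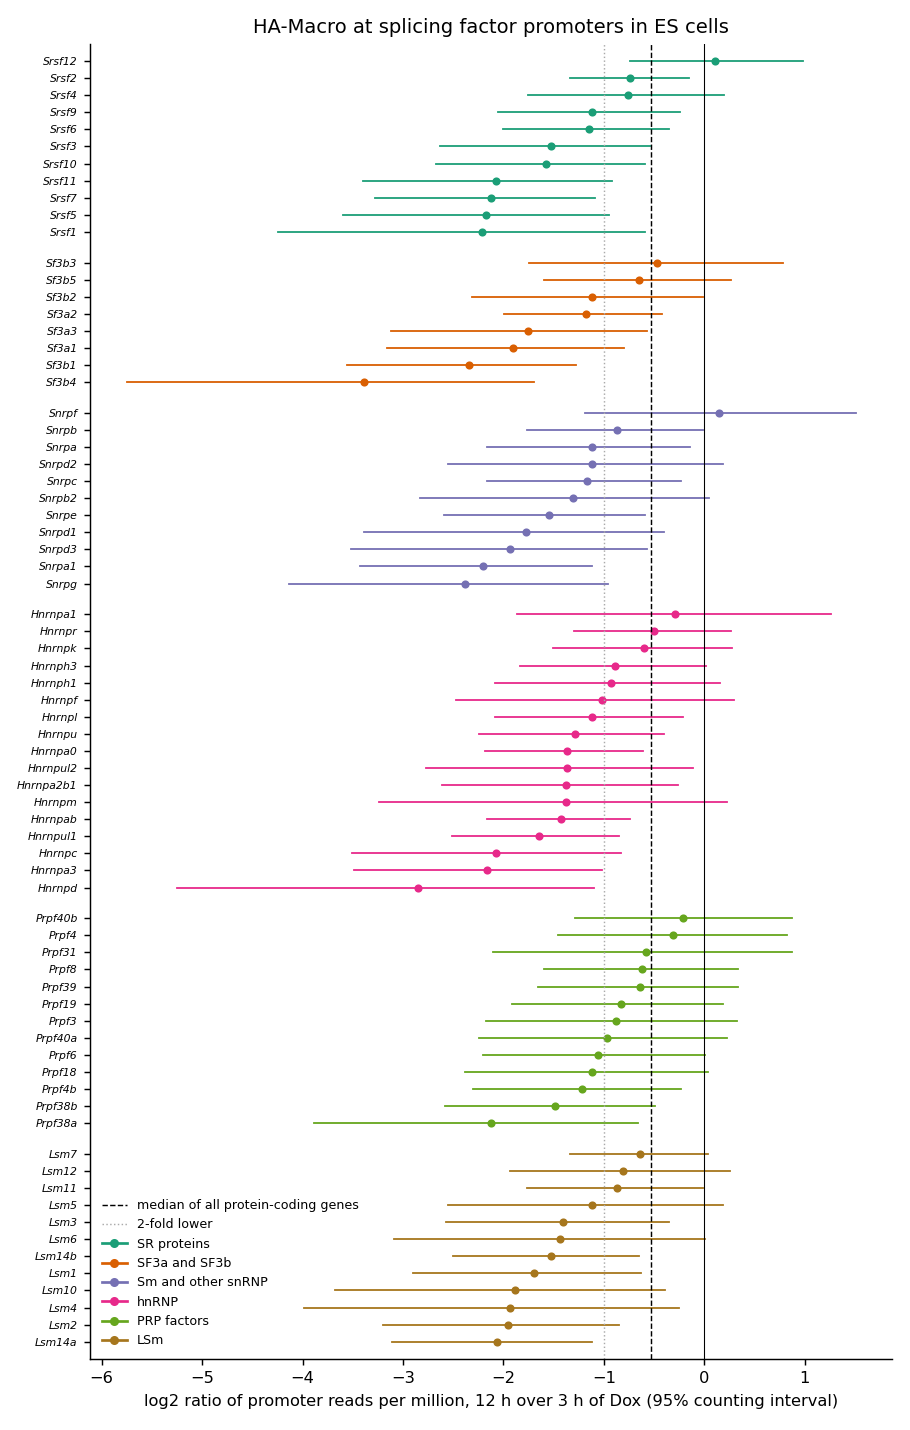
Log2 ratio of promoter level (RPM) at 12 hours over 3 hours of Dox in HA-Macro ES cells for each of the 72 genes, coloured by role, with 95% counting intervals, a dashed line at the median of all protein-coding genes (-0.53) and a dotted line at a 2-fold lower level. Sf3b4 lies lowest and only Snrpf and Srsf12 lie above 0.

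The lower level at 12 hours was found in every role, with the ratio nearest to 0 among PRP factors. The 11 SR protein genes had a median of -1.46, and 8 were at least 2-fold lower. Srsf5, an SR protein whose transcript responds to growth signals, was measured at 0.662, 1.72, 0.874 and 0.383 along the time course, and was 4.50-fold lower at 12 than at 3 hours (log2 ratio -2.17, -3.60 to -0.95). Srsf6, a regulator of alternative exons, was 2.22-fold lower. Srsf2 kept the highest promoter level of the 72 at 12 hours: it was at 1.16, 3.75, 2.62 and 2.25 along the time course, a ratio of -0.74 (-1.34 to -0.15).

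Srsf12, an SR protein expressed in few tissues, was the exception among the SR genes. Its promoter was at 0.579, 1.37, 0.991 and 1.48 along the time course, so that the 12-hour level was no lower than that at 3 hours (log2 ratio 0.11, -0.74 to 0.98). The value depends on the window: within 300 bp of the TSS, with 1 read added, the log2 ratio was 1.62. Srsf12 also had one of the lowest HA-H3.3 promoter levels of the 72 (0.475 at 3 hours, 1.24 at 6 hours) and, with Lsm7, the highest anti-MacroH2A2 level in ES cells (2.40). In MEFs it stood at 1.46, 1.23 and 1.25 at 3, 6 and 12 hours, and no other of the 72 exceeded it at any of these times.

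Among SF3a and SF3b, 6 of 8 were at least 2-fold lower at 12 hours, with a median of -1.40 and a pooled ratio of -1.49 (-1.85 to -1.13). Sf3b4, which contacts the pre-mRNA next to the branch site, had the lowest ratio of all 72 genes: it was at 1.08, 1.72, 0.641 and 0.164 along the time course, which is 3 reads against 29 and 10.5-fold lower (-3.39, -5.75 to -1.70). Its 12-hour level was also below the uninduced one, by 6.55-fold. Sf3a1, the subunit that ties SF3a to the U2 snRNP, was 3.74-fold lower at 12 than at 3 hours. Sf3b3, a scaffold subunit, had the ratio nearest to 0 in this role (-0.47, -1.75 to 0.78).

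Among Sm and other snRNP proteins, 9 of 11 were at least 2-fold lower, with a median of -1.21. Snrpg, a member of the Sm ring, was at 0.414, 1.43, 0.991 and 0.274 along the time course (-2.38, -4.13 to -0.96). Snrpa1, the A′ protein of the U2 snRNP, was 4.58-fold lower at 12 than at 3 hours. Snrpa, the A protein of the U1 snRNP, was at 0.497, 1.66, 0.699 and 0.767 along the time course, 2.17-fold lower at 12 than at 3 hours but not lower than at 6 hours (log2 ratio of 12 over 6 hours 0.13, -1.09 to 1.38). Snrpf held 12 reads at 12 hours and 10 at 3 hours, too few for a direction (0.15, -1.19 to 1.51).

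Among hnRNP proteins, 11 of 17 were at least 2-fold lower, with a median of -1.24. Hnrnpd, which binds AU-rich elements, was at 0.662, 1.19, 0.758 and 0.164 along the time course, on 3 reads against 20 (-2.85, -5.25 to -1.10). Hnrnpu, a scaffold attachment protein, was at 0.828, 2.14, 1.28 and 0.877 in the same order, and was 2.44-fold lower at 12 than at 3 hours. Hnrnpl, a binder of CA repeats, was 2.17-fold lower, but with 1 read added its log2 ratio was -1.07 in this window, -0.76 within 300 bp and -0.63 at the start shared by most of its transcripts, so that the 2-fold call was lost in both of these. The start of Hnrnpl, Hnrnpf, Hnrnpm, Hnrnpk and Hnrnph1 that most of their transcripts share lies more than 600 bp from the annotated gene start, so that their promoter window need not hold the start in use.

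Among LSm proteins, 9 of 12 were at least 2-fold lower, with a median of -1.41. Lsm14a and Lsm14b, which act in translational repression rather than in splicing, had the most promoter reads of this role. Lsm14a was at 0.745, 2.73, 1.11 and 0.657 along the time course (4.16-fold lower at 12 than at 3 hours), and Lsm14b was 2.89-fold lower. Lsm7, a subunit of the ring on the U6 RNA, had the ratio nearest to 0 (-0.64, -1.34 to 0.04), and lies in a 100 kb tile among the 1% with the most reads before induction.

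PRP factors had a median of -0.83 and a pooled ratio of -0.91 (-1.20 to -0.62), and 5 of 13 were at least 2-fold lower. Prpf38a, a factor needed to activate the assembled spliceosome, was at 0.662, 1.19, 0.933 and 0.274 along the time course (-2.12, -3.89 to -0.66). Prpf40b, a U1 snRNP-associated protein, was at 0.579, 1.01, 0.874 and 0.877 in the same order, and its interval included 0 (-0.21, -1.29 to 0.87). Prpf39, also associated with the U1 snRNP, had a ratio of -0.64 (-1.66 to 0.34). The pooled promoter intervals of all 6 roles overlapped, so that the roles were not separated by promoter reads at this depth.

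Most splicing factor promoters were highest at 3 hours and lower at each later time. The order 3 above 6 above 12 hours held for 51 of the 72 (70.8%), compared with 41.5% of all genes tested, and 66 (91.7%) had their highest level at 3 hours (all genes, 57.1%). At 12 hours the pooled level was close to that without Dox, with a log2 ratio of 0.12 (-0.03 to 0.28). At this time 7 of 68 promoters were at least 2-fold below and 4 at least 2-fold above the uninduced level, where 8.21% and 9.02% of all genes were.

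The gain over the uninduced level was largest at 3 hours. Pooled promoter HA-Macro was above the uninduced level by a log2 ratio of 1.36 (1.23 to 1.50), with a median of 1.21 (all genes, 0.59), and 44 of 72 genes were at least 2-fold higher, where 30.1% of all genes were. This ratio and that of 12 over 3 hours share the 3-hour library. At 6 hours the pooled ratio over the uninduced library was 0.62, and 16 genes were at least 2-fold higher, where 16.3% of all genes were. Lsm14a (3.67-fold), Lsm14b (3.59-fold), Snrpa (3.35-fold) and Srsf2 (3.23-fold) were among those higher at 3 hours than without Dox. Snrpa1 was at 0.497 without Dox and 2.26 at 3 hours, which is 4.55-fold higher (log2 ratio 2.19, 0.93 to 3.72).

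Around the TSS, HA-Macro was found mainly on the downstream side. In 200 bp bins over the 70 genes outside the tiles with the most uninduced reads, and relative to the flank (the mean of bins lying 4 to 2 kb upstream), the highest bin was centred 300 bp downstream of the TSS and reached 4.04 (3.70 to 4.40) at 3 hours in ES cells, against 2.39 for all genes. Over the whole promoter window the log2 ratio to the flank was 1.26 (1.16 to 1.36), close to that of CpG-rich promoters (1.21, 1.20 to 1.22) and of other splicing genes (1.24, 1.12 to 1.36), and 0.80 for all genes. The bin centred 300 bp downstream was at 2.32 (2.06 to 2.60) times the flank at 6 hours, 1.79 (1.57 to 2.05) at 12 hours and 1.71 without Dox. The log2 ratio of the whole window was 0.60, 0.20 and 0.39 in the same order. In the bin centred 100 bp upstream the value at 3 hours was 1.00, level with the flank. HA-H3.3 gave 2.83 and 3.84 in the upstream bin and 3.63 and 4.19 in the downstream bin at 3 and 6 hours, and anti-MacroH2A2 in ES cells 1.72 (1.39 to 2.12) and 3.43 (2.95 to 3.97). These libraries hold intervals of 400 bp and the HA-Macro ones of 150 bp, where the methods give 1 length of 150 bp, and the part of interval length in these shapes was not tested. Of the promoter reads at 3 hours of HA-Macro, 71.9% lay downstream of the TSS, compared with 62.6% for all genes. This share was 71.5% for other splicing genes, 65.6% for CpG-rich promoters, and 73.5% and 61.8% for cytosolic and mitochondrial ribosomal protein genes. Without Dox it was 60.2% for the splicing factor genes and 55.8% for all genes. For HA-H3.3 the shares were 55.9% and 52.2% at 3 and 6 hours (all genes, 56.6% and 53.7%).

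**Figure D3:**
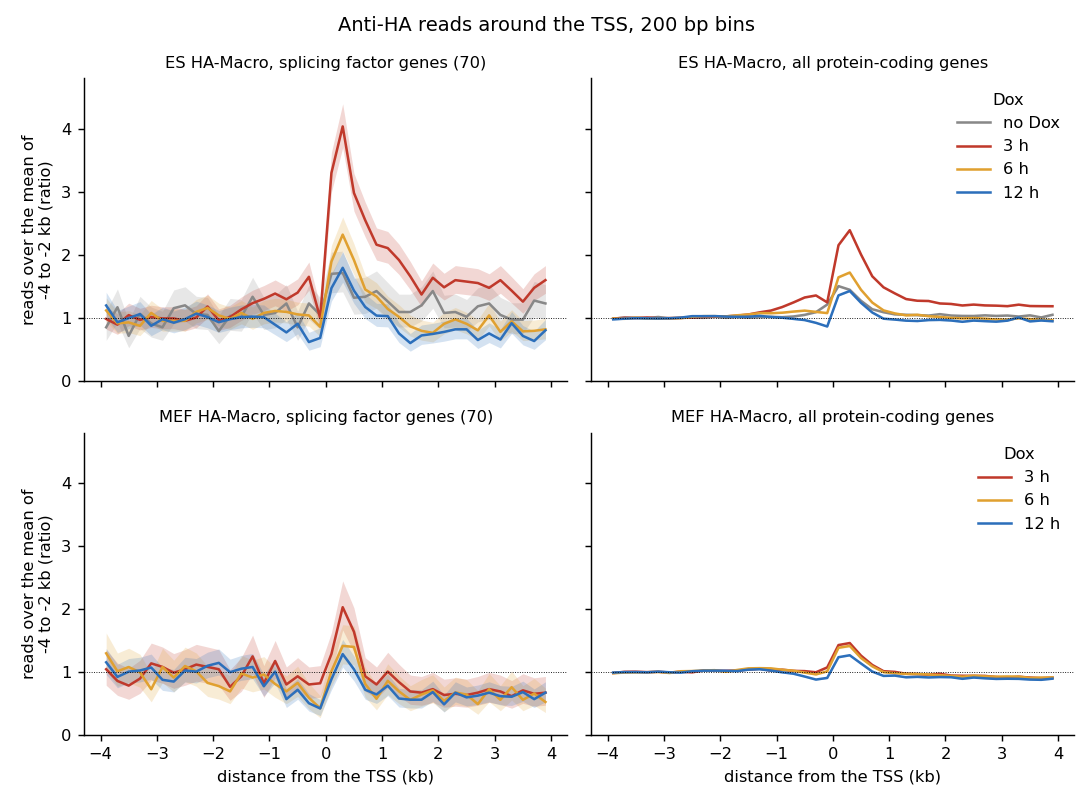
Anti-HA reads within 4 kb of the TSS in bins of 200 bp, as a ratio to the upstream flank, in HA-Macro ES cells (top) and MEFs (bottom), for 70 splicing factor genes (left) and all protein-coding genes (right), with lines coloured by time of Dox and shading for 95% counting intervals. In ES cells at 3 hours the splicing factor genes peak at 4.04 downstream of the TSS and stay above 1 from there on, and at 12 hours they peak at 1.79.

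The difference extended into the gene bodies, where it was measured with more reads. Gene bodies were taken from 1 kb downstream of the TSS to the annotated end in the 70 genes longer than 2 kb (all but Lsm10, of the U7 snRNP, and Sf3b5), and pooled levels leave out the 2 in the tiles with the most uninduced reads, Lsm7 and Sf3a2. The pooled HA-Macro level in RPM per kb in ES cells was 0.451, 0.842, 0.433 and 0.370 along the time course, against 0.408, 0.490, 0.426 and 0.415 for all genes. The level at 3 hours stood above the uninduced one, while that at 6 hours was near it and that at 12 hours below it. In the same bodies HA-H3.3 gave 0.609 at 3 hours and 0.816 at 6 hours (all genes, 0.480 and 0.505). Anti-MacroH2A2 gave 0.418 in ES cells (all genes, 0.456).

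**Figure D4:**
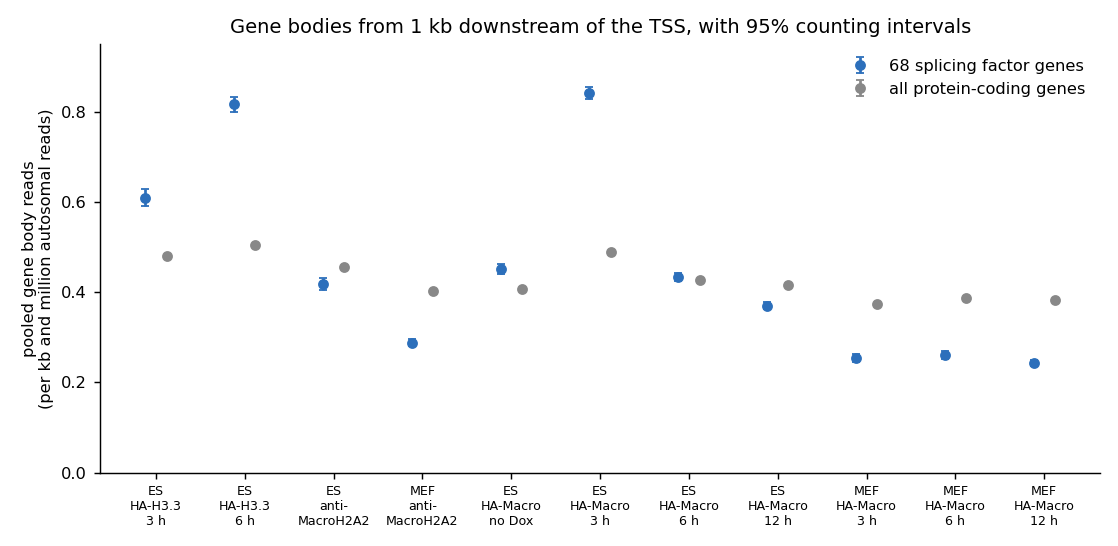
Pooled level (RPM per kb) in gene bodies, from 1 kb downstream of the TSS to the gene end, for 68 splicing factor genes (blue) and all protein-coding genes (grey) in each of the 11 libraries, with 95% counting intervals. The splicing factor genes stand at 0.842 in HA-Macro ES cells at 3 hours and 0.370 at 12 hours, and below all genes in every MEF library.

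In ES cells the gene body ratio of 12 over 3 hours was -1.18 (-1.22 to -1.14) in the pool and -1.23 in the median, against a median of -0.25 for all genes. At least 2-fold lower were 54 of 70 bodies, where 16.5% of all bodies were, and for 69 the counting interval lay below 0 (all genes, 45.6%). From 6 to 12 hours, without the 3-hour library, the pooled ratio was -0.22 (-0.27 to -0.18; all genes, -0.04), and 1 of 70 bodies was at least 2-fold lower, where 0.4% of all bodies were. From 3 to 6 hours 36 of 70 were at least 2-fold lower, where 6.49% of all bodies were. The order 3 above 6 above 12 hours held for 56 of 70 (80.0%, all genes 44.3%), and 69 (98.6%) were highest at 3 hours (all genes, 55.6%).

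All 17 hnRNP gene bodies were at least 2-fold lower at 12 than at 3 hours, as were 8 of 11 SR, 6 of 7 SF3a and SF3b, 9 of 11 Sm and other snRNP, 7 of 13 PRP and 7 of 11 LSm genes. The pooled body ratio of hnRNP genes was -1.45 (-1.54 to -1.37), with an interval below those of the other roles. In the other roles it ran from -1.22 (-1.33 to -1.12) for SF3a and SF3b to -0.99 (-1.10 to -0.87) for SR proteins, whose pool includes Srsf12, the only body above 0. Medians were -1.46 for hnRNP genes, -1.17 for SR proteins and between -1.30 and -1.14 in the other roles. The intervals cover counting error and not the spread between genes, and all these values use the 3-hour library. The lowest ratio of the 70 was that of Hnrnpa0, an AU-rich RNA binder encoded by a single exon, with 9 reads at 12 hours against 42 at 3 hours (-2.34, -3.56 to -1.28). The body of Hnrnpu stood at 0.525, 1.02, 0.425 and 0.283 along the time course, and that of Hnrnpd at 0.386, 0.890, 0.394 and 0.239. Sf3b1, the subunit that clamps the branch point, had 206 reads at 12 hours and 572 at 3 hours (-1.59, -1.83 to -1.36). Both hnRNP genes and Sf3b1 were thus highest at 3 hours and below their uninduced level at 12 hours, Sf3b1 with 0.273 against 0.443.

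Srsf12 was the only body of the 70 with an interval above 0, as 19.3% of all bodies had. It was at 0.432, 0.384, 0.414 and 0.502 along the time course, from 151 and 214 reads at 3 and 12 hours (log2 ratio 0.39, 0.08 to 0.70). Its body also held the least HA-Macro of the 70 at 3 hours and the least HA-H3.3 at 6 hours (0.397), where Lsm4, of the ring on the U6 RNA, held the most (3.69).

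Compared with the uninduced library, gene body HA-Macro was higher at 3 hours by a pooled log2 ratio of 0.91 (0.86 to 0.95), and 27 of 70 bodies were at least 2-fold higher, where 15.2% of all bodies were. At 12 hours the pooled ratio was -0.28 (-0.32 to -0.23), while that of all genes was 0.02. The interval lay below 0 for 22 of 70 bodies and above 0 for 2, where 17.8% and 26.7% of all bodies lay.

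In MEFs the gene body level differed little between times. The pooled levels were 0.254, 0.261 and 0.243 at 3, 6 and 12 hours (all genes, 0.374, 0.387 and 0.382), and the ratio of 12 over 3 hours was -0.06 (-0.12 to 0.01). Of 68 bodies with at least 10 reads, 2 were at least 2-fold lower, where 0.739% of all bodies were. These were Snrpe, a subunit of the Sm ring, and Srsf1, the founding SR protein, which was at 0.272 at 3 hours and 0.130 at 12 hours. The MEF levels were below the uninduced ES level (0.451), and since there is no uninduced MEF library the background in MEFs was not measured.

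**Figure D5:**
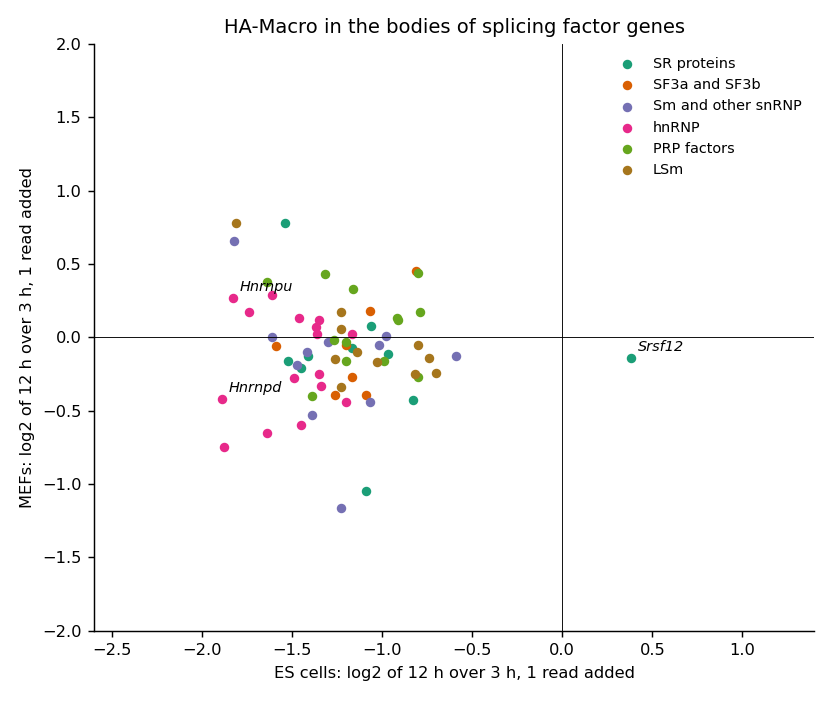
Log2 ratio of gene body HA-Macro level (RPM) at 12 hours over 3 hours with 1 read added, in ES cells (x axis) and in MEFs (y axis), for each splicing factor gene with at least 10 reads in both comparisons, coloured by role. Values in MEFs lie between -1.16 and 0.78 around 0, while all genes but Srsf12 lie below 0 in ES cells.

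Pooled over all genes outside the tiles with the most uninduced reads, the MEF promoter ratio of 12 over 3 hours was -0.13. Pooled over the 72 splicing factor genes it was -0.47 (-0.66 to -0.29). By role it ran from -1.08 (-1.57 to -0.60) for PRP factors, of which 4 of 7 measured genes were at least 2-fold lower, to -0.01 (-0.56 to 0.56) for Sm and other snRNP proteins. PRP factors, nearest to 0 of the roles in ES cells, thus had the lowest value in MEFs. Only 47 of the 72 reached 10 reads in both libraries together, and of these 13 were at least 2-fold lower, where 12.2% of all genes tested were, and 1 (Hnrnpl, 14 reads against 2) at least 2-fold higher, where 4.35% were. The count of 13 was 3 within 300 bp of the TSS, 21 without a minimum of reads and 0 with a minimum of 30, which 1 gene reached. The interval lay below 0 for 2 genes, where 3.24% of all genes tested did: Hnrnpf, a binder of G-rich sequence, and Hnrnpul1, an RNA-binding relative of Hnrnpu. At 3, 6 and 12 hours Hnrnpul1 was at 0.915, 0.757 and 0.201, and Srsf2 at 0.732, 0.757 and 0.752, nearly the same at each time. From 6 to 12 hours the pooled ratio was -0.28 (-0.48 to -0.09), and 7 of 46 genes were at least 2-fold lower, where 10.4% of all genes tested were. The order 3 above 6 above 12 hours held for 14 of 63 promoters (22.2%, all genes 18.2%). Relative to the upstream flank, the MEF promoter window of splicing factor genes had log2 ratios of 0.32, -0.09 and -0.31 at 3, 6 and 12 hours. For all genes these were 0.27, 0.22 and 0.08, and for PRP factors the 12-hour value was -0.77. The MEF promoter ratios thus compare levels near or below those of the flank.

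Between cell types, splicing factor promoters held a smaller share of the reads in MEFs than in ES cells with each antibody. With anti-MacroH2A2 the pooled log2 ratio of MEFs over ES cells was -1.11 (-1.27 to -0.95) and the median -1.12. At least 2-fold lower were 36 of the 64 genes with at least 10 reads (56.2%), where 39.4% of all genes tested and 56.1% of CpG-rich promoters were. None was 2-fold higher (all genes tested, 2.14%). When scaled to the median promoter the pooled ratio became -0.33, with 5 of 64 genes at least 2-fold lower, where 8% of all genes were, and 2 at least 2-fold higher, where 12.6% were. With the library total the median of all genes was -0.78 and that of CpG-rich promoters -1.08. Hnrnph3, a relative of the G-run binder Hnrnph1, was at 1.80 in ES cells and 0.210 in MEFs (8.59-fold lower, log2 interval -5.53 to -1.28). Srsf3, the smallest SR protein, was 6.44-fold lower (log2 interval -4.74 to -1.04) and Hnrnpu 5.15-fold lower (-4.45 to -0.64). Hnrnpf, Prpf38a and Prpf40b had a higher level in MEFs, on 9, 10 and 10 reads against 3, 5 and 3, and their intervals included 0. The direction did not hold for Hnrnpf at the start shared by most of its transcripts (-1.14, from 0.54) or for Prpf40b within 300 bp (-0.78, from 0.68).

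The HA-tagged protein gave the same direction at 12 hours, at levels near or below the uninduced one. Pooled promoter levels were 49.74 RPM in ES cells and 27.54 in MEFs, against 45.77 in uninduced ES cells. Without an uninduced MEF library, the part of background in this difference was not measured. The pooled ratio of MEFs over ES cells was -0.85 (-1.01 to -0.70), with 21 of 65 genes at least 2-fold lower, where 22.8% of all genes tested and 31.0% of CpG-rich promoters were. PRP factors had the lowest pooled ratio of the 6 roles (-1.31, -1.74 to -0.90), and 8 of their 12 measured genes were at least 2-fold lower. This order did not hold elsewhere: at 3 hours PRP factors had the ratio nearest to 0 (-1.14, -1.52 to -0.77) and Sm and other snRNP proteins the lowest (-2.03, -2.53 to -1.56), and with anti-MacroH2A2 both were at -0.91. Srsf2 was at 2.25 in ES cells and 0.752 in MEFs (-1.58, -2.54 to -0.69), and Srsf12 at 1.48 and 1.25 (-0.24, -1.08 to 0.60).

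At 3 hours the cell types were further apart. The pooled ratio was -1.62 (-1.78 to -1.47), with 55 of 71 promoters at least 2-fold lower in MEFs, where 39.3% of all genes tested were. Sf3a1 (10.1-fold), Snrpa (6.06-fold), Hnrnpu (5.85-fold) and Srsf2 (5.12-fold) were among them. In this MEF library the median of the 72 was 0.503 RPM and 1 read is 0.0915 RPM, so that these folds rest on few MEF reads. At least 2-fold lower as well were 57.5% of CpG-rich promoters, 83.3% of other splicing genes, and 71.4% of mitochondrial and 53.9% of cytosolic ribosomal protein genes. Srsf3 had 0 reads in MEFs against 32 in ES cells, and Snrpd3, a core Sm protein, 0 against 21. With 3 reads or 0.275 RPM put in place of 0 in MEFs, Srsf3 was 6.93-fold and Snrpd3 4.55-fold lower. These folds leave out the counting error of the ES reads and are not limits of the exact intervals. Hnrnpa1 also had 0 reads in MEFs, against 9 in ES cells. At 6 hours the pooled ratio of MEFs over ES cells was -1.07 (-1.24 to -0.90), and 34 of 67 genes were at least 2-fold lower, where 26% of all genes tested were.

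In the gene bodies the cell types differed most at 3 hours as well, with a pooled ratio of MEFs over ES cells of -1.73 and 68 of 70 bodies at least 2-fold lower, where 38.8% of all bodies were. The exceptions included Srsf12, at 0.333 in MEFs and 0.384 in ES cells. At 6 hours the pooled ratio was -0.73 and 20 of 70 were at least 2-fold lower, where 5.95% of all bodies were. At 12 hours it was -0.61 and 5 were at least 2-fold lower, where 4.5% of all bodies were. With anti-MacroH2A2 it was -0.55, and 12 of 70 were at least 2-fold lower, where 6.96% of all bodies were.

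HA-H3.3 at the same promoters was higher at 6 than at 3 hours. The pooled log2 ratio of 6 over 3 hours was 0.75 (0.64 to 0.86) and the median 0.69 (all genes, 0.52), and 22 of 72 genes were at least 2-fold higher, where 19.8% of all genes tested were. When scaled to the median promoter the pooled ratio became 0.23, with 6 genes at least 2-fold higher and 1 lower, where 4.59% and 8.81% of all genes were, and with 5 reads added in place of 1 the count was 5. Hnrnpl was at 3.01 and then 8.21, the highest promoter level of the 72 at 6 hours, and Hnrnpu at 3.32 and then 7.73. Srsf2, which had the highest HA-H3.3 at 3 hours, was at 4.43 and then 3.25 (-0.45, -1.21 to 0.33). In gene bodies the pooled ratio was 0.41, and Lsm4 and Hnrnpa2b1, a reader of RNA export signals, were the 2 at least 2-fold higher, where 2.44% of all bodies were. For HA-Macro, in its own ES line, the ratio of 6 over 3 hours at promoters was -0.75, with 17 genes at least 2-fold lower, where 12.1% of all genes tested were.

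Splicing factor genes were not alone in these values. In ES cells 35 of 54 other splicing genes, from a list of helicases, SR-related and snRNP-associated factors, had at least 2-fold less promoter HA-Macro at 12 than at 3 hours, with a median of -1.21, where 28.3% of all genes and 44.1% of CpG-rich promoters did. Of cytosolic ribosomal protein genes 68 of 131 did (median -1.04), and of mitochondrial ribosomal protein genes 43 of 77 (median -1.07). The cytosolic list, here and above, was taken by symbol and was not filtered for gene copies. Its 134 genes had a median length of 2.0 kb and a median of 1 transcript, and 35.8% had CpG-rich promoters. Its promoter shares and medians therefore need not be those of the expressed ribosomal protein genes. Only 68 of the 134 had a gene body, so that promoter and body values of this list cover different genes. In gene bodies the medians were -1.07, -1.32 and -0.93 for the 3 lists, beside -1.23 for the 70 splicing factor bodies and -0.67 for genes with CpG-rich promoters. From 6 to 12 hours 11 of 54, 22 of 129 and 10 of 76 promoters of the 3 lists were at least 2-fold lower, where 10.3% of all genes were, with medians of -0.48, -0.32 and -0.42, beside -0.51 for the 72. In gene bodies these medians were -0.13, -0.30 and -0.11, beside -0.29 for the 70. The pooled body ratio was -1.18 (-1.22 to -1.14) for the 70 and -1.15 (-1.22 to -1.07) for cytosolic ribosomal protein genes, with overlapping intervals.

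The lower ratio of splicing factor promoters was seen within each promoter class. Of the 45 CpG-rich ones 66.7% were at least 2-fold lower at 12 hours in ES cells (all CpG-rich, 44.1%), with a median of -1.33 (all, -0.91). Of the 27 others 66.7% were (all, 18.9%), with a median of -1.06 (all, -0.22). With a divergent partner the medians were -1.34 for the 21 genes and -1.0 for all, and without one -1.12 and -0.46. With the ETS motif they were -1.22 for the 16 genes and -1.02 for all, and without it -1.18 and -0.47. From 6 to 12 hours the medians of splicing factor genes against all genes were -0.54 against -0.43 at CpG-rich promoters and -0.31 against -0.09 at the others. They were -0.54 against -0.43 with a divergent partner, -0.50 against -0.24 without one, -0.65 against -0.43 with the ETS motif and -0.35 against -0.24 without it.

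Splicing factor gene bodies also stood in the upper range of HA-H3.3. When all gene bodies were ranked by their HA-H3.3 level at 6 hours and divided into 4 classes of equal size, 0, 11, 35 and 22 of 68 fell into classes 1 to 4, from low to high. Their median HA-Macro ratio of 12 over 3 hours in ES cells was -1.23 in class 2 (all genes, -0.14), -1.20 in class 3 (all genes, -0.63) and -1.35 in class 4 (all genes, -0.66). From 6 to 12 hours these medians were -0.51, -0.27 and -0.32 (all genes, -0.04, -0.11 and -0.17). In MEFs the medians of 12 over 3 hours were -0.05, -0.05 and -0.25 (all genes, 0.03, 0.00 and -0.03). In each of the 3 HA-H3.3 classes that held splicing factor genes, their median ratio was thus below that of all genes. The difference was smaller in MEFs than for 12 over 3 hours in ES cells, but in class 4 not smaller than for 12 over 6 hours.

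Each library was scaled to its own total, so that a ratio compares shares of reads and not amounts of histone. Scaling to the median promoter instead moves all promoters by the shift of that median, which was -0.54 for 12 over 3 hours in ES cells and -0.78 for anti-MacroH2A2 in MEFs over ES cells. Relative to it the splicing factor promoters stayed lower in ES cells (pooled -0.70, 22 of 72 at least 2-fold lower, where 8.96% of all genes were) and, at 3 hours, in MEFs than in ES cells (-0.87, 20 of 71, where 15.6% were). For 12 over 3 hours in MEFs the pooled ratio became -0.20, with 9 of 47 at least 2-fold lower and 3 higher, where 6.33% and 7.65% of all genes were.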

How the data were processed

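The deposited files list, in mm9 coordinates, the span of every extended ChIP-Seq read and carry neither strand, score nor count column. The authors made them from Bowtie alignments (version 1.0 per the submitters' processing notes), in which a read from repeated sequence has 1 random place. Repeated intervals make up 0.464% to 0.694% of the libraries with 400 bp intervals and 3.27% to 6.00% of the others.

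Interval midpoints on chromosomes 1 to 19 were counted within 600 bp of each gene's 5′ end and in gene bodies, and divided by the library total there. Single-promoter and pooled ratios carry no added read, while medians and 2-fold calls add 1 read and need 10 reads in both libraries together. Ratios have exact binomial (Clopper-Pearson) intervals and levels exact Poisson intervals, which cover counting error only, since reads are not independent molecules. The top 1% of 100 kb tiles by uninduced reads (246 of 24731) were left out of profiles and body levels. Pooled ratios of all genes and of the comparison lists leave these tiles out as well, while pooled ratios of the splicing factor genes keep Lsm7 and Sf3a2. The counting was tested on simulated data. Python 3.11.15 with numpy 2.4.6, pandas 2.3.3 and scipy 1.17.1 was used.

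Groups came from the labels. The members, gene lists and motifs were chosen with earlier results of these data known. Genes were named for the most promoter reads in their role, for the lowest or highest ratio of 12 over 3 hours in ES cells or of anti-MacroH2A2 in MEFs over ES cells, for 0 reads in a library or for a place in a discarded tile. Hnrnpa0, Hnrnpa2b1, Hnrnpab, Hnrnpul1, Lsm4, Sf3b1, Snrpe and Srsf1 were named after their values were seen, and Srsf7 for its promoter motif. Of 55 other splicing genes 54 were matched, all but Nono. Alternative windows, minimum counts, added reads, scalings and a replacement of the 3-hour by the 6-hour library were tried.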

Additional observations from a re-analysis of the deposited data

How the results depend on the processing

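No paired analysis was possible because each condition has 1 library. Of 159 alternative values of pooled ratios and counts, 118 stayed within their counting interval or within 1.5 times the count and 41 moved, with every pooled promoter ratio keeping its direction. Scaling to the median promoter gave pooled ratios of -0.70 (12 over 3 hours, ES cells), -0.20 (the same, MEFs), -0.33 (anti-MacroH2A2, MEFs over ES cells), -0.37 (12 hours, MEFs over ES cells), -0.87 (3 hours, MEFs over ES cells), 0.23 (HA-H3.3) and 0.73 (3 hours over no Dox), with 22, 9, 5, 13, 20, 6 and 18 genes called. Scaling to the reads from 4 to 2 kb upstream, chosen after seeing the data, gave -1.0, -0.85, -0.52, -0.94, 0.35 and 0.84 in the same order, leaving out 12 over 3 hours in MEFs, which stayed within its interval. Counts with a 300 bp window were 3 (12 over 3 hours, MEFs), 16 (anti-MacroH2A2) and 11 (12 hours, MEFs over ES cells). Without a minimum 21 promoters were called for 12 over 3 hours in MEFs. A minimum of 30 reads, which 51, 1, 3, 11, 45, 54 and 42 genes reached, left 0 (12 over 3 hours, MEFs), 2 (anti-MacroH2A2), 2 (12 hours, MEFs over ES cells), 14 (HA-H3.3) and 29 (3 hours over no Dox). Adding 5 reads left 13 (12 hours, MEFs over ES cells), 32 (3 hours, MEFs over ES cells), 5 (HA-H3.3) and 25 (3 hours over no Dox). Replacing the 3-hour by the 6-hour library gave -0.50 and 18 genes (ES cells), -0.28 and 7 (MEFs), -1.07 and 34 (MEFs over ES cells), 0.62 and 16 (over no Dox) and, for gene bodies in ES cells, -0.22 and 1. The no-Dox and gene body replacements were added after seeing the data. Of the values for named genes, 279 stayed within their counting interval, 6 moved out of it and 1, that of Snrpa, was called 2-fold lower and turned to 0.12 for 12 over 6 hours, where Lsm7 (0.05) and Hnrnpa1 (0.08), not called before, also lay above 0. Inside or outside the interval, other directions and calls changed: Hnrnpf (-1.14 at the start shared by most transcripts) and Prpf40b (-0.78 within 300 bp) turned for anti-MacroH2A2, as did Snrpf (-0.29 within 300 bp) and Prpf40b (0.37 within 300 bp, 0.06 at the shared start) for 12 over 3 hours in ES cells, and Hnrnpl, Hnrnpu, Lsm14a, Sf3a1, Sf3a2, Srsf3 and Srsf6 were no longer 2-fold lower, between -0.85 and -0.09 for 12 over 6 hours. Calls with anti-MacroH2A2 changed as well. Lsm7 and Lsm14a (both -0.90), Snrpa1 (-0.86) and Srsf12 (-0.88) were no longer 2-fold lower within 1 kb, nor was Srsf2 (-0.78) within 300 bp. Hnrnpa1 (-1.78), Hnrnpd (-3.1) and Snrpa (-1.52) were 2-fold lower only within 300 bp. The cause of these changes was not tested. Depth also limits single promoters: in MEFs only 47 of the 72 reached 10 reads at 3 and 12 hours together.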
